A study of Mus musculus with 12 samples.

Results

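Amino acid transporters are the membrane proteins through which cells take up, release and exchange amino acids. The 10 genes described here are the heavy chain Slc3a2, its partner light chains Slc7a5 and Slc7a11, the cationic amino acid transporters Slc7a1 and Slc7a3, the neutral amino acid exchangers Slc1a4 and Slc1a5, the system A carriers Slc38a1 and Slc38a2, and the glycine transporter Slc6a9. They were chosen by name with earlier results of these data known, and all 10 were found among the 35385 gene symbols in the files. The RNA came from cultured mouse OPCs (oligodendrocyte progenitor cells), which give rise to the myelinating cells of the brain and had here been derived from pluripotent stem cells. After 1 h of attachment in a medium permitting differentiation, the cells received for 4 h cetylpyridinium chloride (CPC), C12-C14-Alkyl(ethylbenzyl)dimethylammonium chloride (AEBDAC), methyltrioctylammonium chloride (MTOAC) or the vehicle, dimethyl sulfoxide, with 3 libraries in each of the 4 groups. The 3 compounds are quaternary ammonium compounds, and each was used at its own IC75, the concentration that inhibits by 75%, so the concentrations may differ, and their values are not given in the labels. The growth medium of all groups held N2max, B27, Noggin, NT3, cAMP and IGF-1. No line or number of cultures is given, so the p-values rest on library-to-library spread, which may be technical.

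Slc3a2 encodes a glycoprotein that carries a light chain of the Slc7 family to the cell surface. With Slc7a5 it forms the exchanger LAT1, which brings in leucine and other large neutral amino acids in exchange for glutamine, and with Slc7a11 it forms system xc-, which imports cystine, the source of cysteine for glutathione, and releases glutamate. When cells lack amino acids or are stressed, phosphorylation of eIF2 raises the translation of the transcription factor ATF4, which together with C/EBP proteins binds C/EBP-ATF response elements and induces many genes of amino acid import and synthesis, several of these transporters among them. In the oligodendrocyte lineage, system xc- is known for its part in resistance to oxidative stress.

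Promoter sequence was available for 6 of the 10 genes, in 9 windows of 250 bases before to 50 after a RefSeq start (GRCm38.p6). A core of the response element, TGATGCAA, was searched on both strands, the reverse complement being TTGCATCA. It occurred in 0.895% of 32851 windows of this kind over all genes, and in the windows of Slc7a11 and Slc1a4. Slc7a11 held it in both orientations, the first bases lying 66 and 47 bases before the start, and only 2 of the 32851 windows held 2 matches or more. Slc1a4 held 1 match, beginning 4 bases before the start. Both stretches, from 100 bases before to 20 after the start, are shown 5′ to 3′ on the gene's strand because they carry these matches, which are in capitals. The first lies at chr3:50443594-50443713 and the second at chr11:20332694-20332813, both on the minus strand.
Slc7a11: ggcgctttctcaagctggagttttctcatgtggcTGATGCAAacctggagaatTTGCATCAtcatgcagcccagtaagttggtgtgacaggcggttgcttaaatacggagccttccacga
Slc1a4: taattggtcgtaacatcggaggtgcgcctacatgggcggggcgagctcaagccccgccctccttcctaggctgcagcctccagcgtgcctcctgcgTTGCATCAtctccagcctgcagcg
A match describes these letters and is not a measured binding site. The windows of Slc3a2, Slc7a1, Slc38a2 and Slc6a9 did not hold the core, which says nothing of sequence outside them. The bases just after the start in the Slc3a2 window were not found in that gene's annotated transcripts, and whether this start is in use was not tested. No sequence was available for Slc7a5, Slc7a3, Slc1a5 and Slc38a1. The core of the antioxidant response element, TGACNNNGC, which occurred in 12.4% of all windows, was present in 4 of the 9 windows, namely 1 of Slc7a1, 1 of Slc38a2 and 2 of Slc6a9.

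The deposited values are TPM, each library's transcripts scaled for their length and to a common total. Levels of different genes are set side by side here only as listed. The libraries summed to between 772637 and 797758 TPM, and since TPM keep no depth, depth is unknown beyond a stated minimum of reads. Vehicle library 1 stood apart, with mt-Nd3 listed at 0 against 8716 to 13261 TPM in the other 11 libraries. Its mitochondrially encoded genes together summed to 86422 TPM, against 147539 to 183001 TPM in the other 11. This library held the highest vehicle value for 59.4% of all genes tested, and every comparison with vehicle uses it. Actb, which nearly all cells express strongly, was listed at only 31.6 to 76.2 TPM, and the cause was not tested. The OPC label fits Olig1 (456 to 1284 TPM) and Olig2 (263 to 537 TPM). The OPC markers Pdgfra (11.45 to 35.58 TPM) and Sox10 (7.146 to 60.99 TPM) were listed far lower. The microglial markers Cx3cr1, C1qa, C1qb and Trem2 were listed at 0 throughout. The 10 OPC markers summed to 1722 to 1856 TPM with CPC, 1630 to 1864 with AEBDAC and 1420 to 1502 with MTOAC, against 2132 to 2506 in vehicle. The 10 neuronal markers summed to 335 to 403, 317 to 356 and 274 to 355 TPM, against 437 to 484 in vehicle, and 10 mesenchymal markers to 1595 to 2133, 1800 to 2188 and 1729 to 2224 TPM, against 1559 to 1870, with Pdgfrb at 0 throughout. Of these mesenchymal markers only 4 passed the filter, and of the neuronal markers 7. The neuronal markers Rbfox3 and Snap25 were listed at 3.484 to 7.945 and 0.2893 to 2.143 TPM over all 12 libraries. Astrocyte markers summed to 244.4 to 251.9, 272.2 to 286.7 and 223 to 264.3 TPM, against 264.5 to 287.3 in vehicle. Among them Gfap was listed at 0.2942 to 1.408, Aqp4 at 0 to 1.042, Slc1a2 at 4.226 to 11.26 and Slc1a3 at 7.85 to 19.51 TPM. The neuronal and astrocyte sums alone therefore do not show that such cells were present. Pluripotency markers summed to 11.09 to 34.33, 11.44 to 37.98 and 13.79 to 39.05 TPM, against 8.483 to 35.8 in vehicle. The part of these shifts in the results below was not tested. In RNA from whole cultures, fewer cells of a type and less RNA per cell cannot be told apart.

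Without any compound the 10 genes spanned a wide range of levels. In vehicle Slc3a2 was highest at 142 ± 4.13 TPM (SD, n = 3), followed by Slc7a5 at 119 ± 11.5 TPM, Slc38a2 at 93.4 ± 3.30 TPM and Slc1a4 at 33.7 ± 2.54 TPM. These 4 did not overlap one another between libraries, and they lay above 94.7%, 93.2%, 91.3% and 75.1% of the 12009 genes tested. Slc38a1 (8.78 ± 0.847 TPM), Slc6a9 (6.15 ± 0.580 TPM) and Slc1a5 (5.47 ± 1.44 TPM) stood far lower, and the last 2 of these overlapped. Slc7a11 stood at 2.35 ± 0.454 TPM. The cationic transporters came last, with Slc7a3 at 1.09 ± 0.598 TPM and Slc7a1 at 0.625 ± 0.230 TPM, and their libraries overlapped. Slc3a2 and Slc7a5 alone gave 61.5% to 65.7% of the TPM of the 10 genes in the vehicle libraries.

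**Figure D1:**
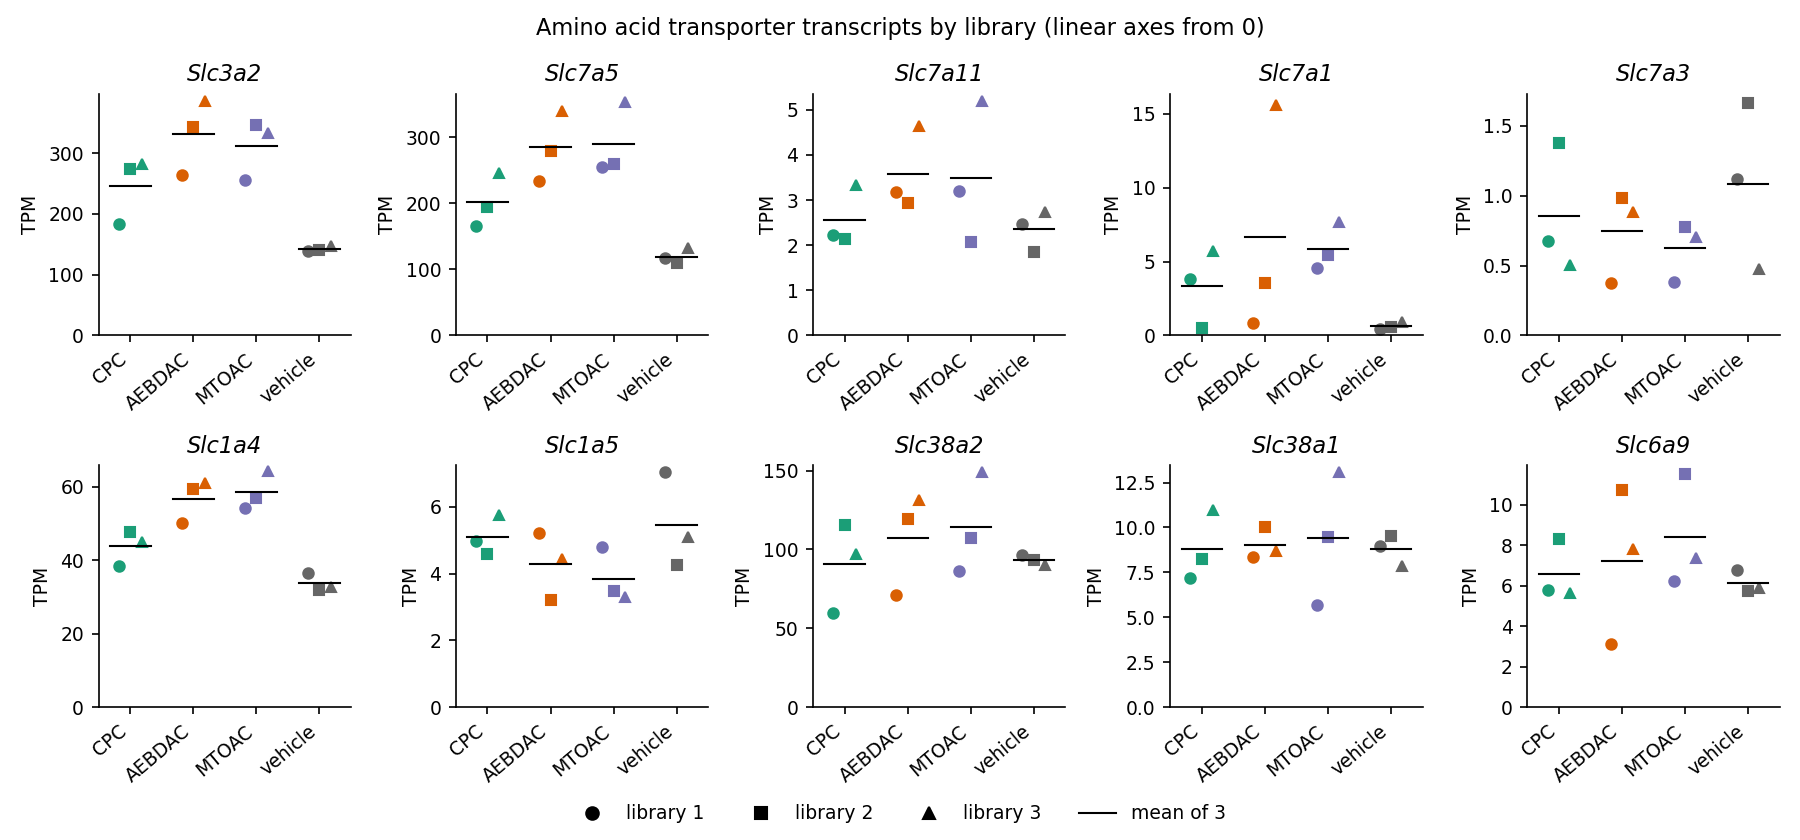
TPM of each of the 10 transporter genes (vertical axes, linear from 0) in every library of CPC, AEBDAC, MTOAC and vehicle; symbols mark the library number and lines the mean of 3. Slc3a2, Slc7a5 and Slc1a4 lie above the vehicle libraries in all 9 compound libraries, whereas Slc38a2, Slc38a1, Slc6a9, Slc1a5 and Slc7a3 overlap vehicle with each compound.

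The heavy chain Slc3a2 and the LAT1 light chain Slc7a5 both rose with AEBDAC and with MTOAC. Slc3a2 (ENSMUSG00000010095.13, chr19:8706882-8723369) stood in libraries 1 to 3 at 184, 274 and 283 TPM with CPC, at 264, 343 and 386 TPM with AEBDAC and at 255, 346 and 334 TPM with MTOAC, against 140, 140 and 147 TPM in vehicle. Every compound library exceeded every vehicle library, and CPC library 1 was the lowest of the 9. The log2 fold change over vehicle was 1.19 ± 0.19 (SE) with AEBDAC (adjusted p = 0.0225) and 1.11 ± 0.19 with MTOAC (adjusted p = 0.0128). With CPC it was 0.76 ± 0.19 and did not pass (adjusted p = 0.154). Fold changes and tests here are from limma on log2(TPM + 1), over the 12009 genes that reached 1 TPM in 3 or more libraries, with Benjamini-Hochberg adjustment and a threshold of 0.05.

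Slc7a5 (ENSMUSG00000040010.10, chr8:121881150-121907694) stood at 165, 195 and 246 TPM with CPC, at 234, 279 and 339 TPM with AEBDAC and at 254, 259 and 354 TPM with MTOAC, against 117, 109 and 132 TPM in vehicle. Again no compound library overlapped vehicle, and CPC libraries 1 and 2 were the closest to it. Its log2 fold change was 1.23 ± 0.19 with AEBDAC (adjusted p = 0.0190) and 1.26 ± 0.19 with MTOAC (adjusted p = 0.00695), and 0.74 ± 0.19 with CPC (adjusted p = 0.154). Libraries with the same number in CPC and vehicle deviated together, and with that number as a block both genes passed with CPC, at an adjusted p of 0.0220 for Slc7a5 and 0.0317 for Slc3a2. The protein-coding model Gm20388 overlaps Slc7a5 on the opposite strand, and the library kit is not described as marking strand.

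The light chains together and the heavy chain were listed at similar levels. The 6 light chains known to pair with Slc3a2, namely Slc7a5, Slc7a6, Slc7a7, Slc7a8, Slc7a10 and Slc7a11, summed to 0.904 ± 0.123 TPM per TPM of Slc3a2 with CPC, 0.913 ± 0.0461 with AEBDAC and 0.994 ± 0.182 with MTOAC, against 1.02 ± 0.0507 in vehicle (SD, n = 3 each). Ratios in the compound libraries reached from below the vehicle range of 0.962 to 1.06 up to 1.13 in MTOAC library 3. Slc7a5 made up 88.76% to 93.43% of the TPM of the light chains with CPC, 93.7% to 94.6% with AEBDAC and 93.55% to 94.96% with MTOAC, against 79.1% to 86.1% in vehicle. Slc7a6, the light chain of the y+LAT2 exchanger and the next most abundant, stood at 14.9 ± 2.73 TPM with CPC, 13.0 ± 0.950 TPM with AEBDAC and 14.2 ± 4.10 TPM with MTOAC, against 22.6 ± 5.18 TPM in vehicle. Its difference from vehicle did not pass with any compound (log2 fold changes -0.57, -0.74 and -0.64, adjusted p = 0.303, 0.109 and 0.0992, limma). Slc7a7, Slc7a8 and Slc7a10 stood at or below 1.26 TPM in all 12 libraries.

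**Figure D2:**
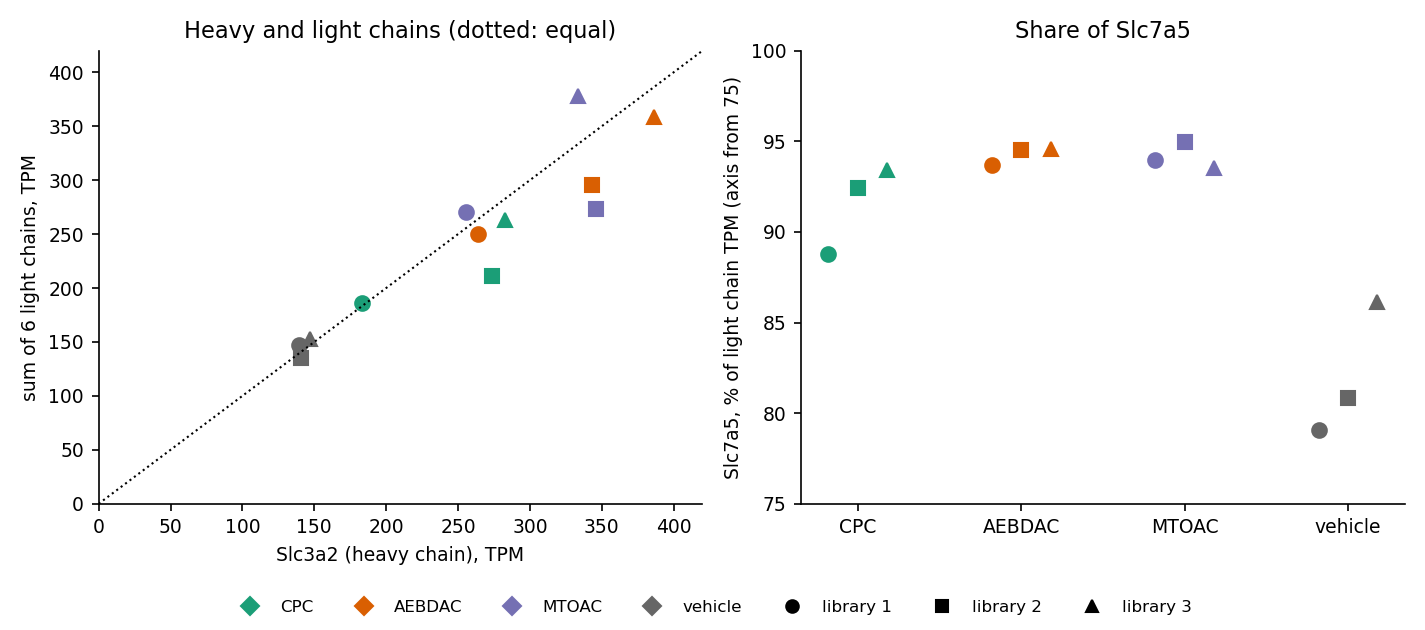
Left, the sum of 6 light chains against the heavy chain Slc3a2 in each library, both in TPM, with a dotted line where they are equal; right, the share of Slc7a5 in that sum, in percent on an axis from 75. Compound libraries lie farther along the line than the 3 vehicle libraries, and their share of Slc7a5 is 88.76% or more, against 79.1% to 86.1% in vehicle.

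Slc7a11, the cystine transporter whose promoter held the core in both orientations, was a low transcript in every group and did not pass with any compound. It stood at 2.22, 2.14 and 3.34 TPM with CPC, at 3.18, 2.94 and 4.64 TPM with AEBDAC and at 3.20, 2.08 and 5.19 TPM with MTOAC, against 2.46, 1.85 and 2.74 TPM in vehicle. The AEBDAC libraries lay above vehicle without overlap, while those of CPC and MTOAC overlapped it. The log2 fold changes of 0.08, 0.44 and 0.37 had 95% intervals that held 0 and did not pass (adjusted p = 0.928, 0.429 and 0.461 for CPC, AEBDAC and MTOAC, limma). The upper 95% bound with AEBDAC was 1.07 log2. A further 5 gene models, 3 of them processed pseudogenes, overlap the long span of Slc7a11 (chr3:49892526-50443614).

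Of the cationic amino acid transporters, which carry arginine and lysine, Slc7a1 had the highest fold changes of the 10 genes with each compound, and none of them passed. It stood at 3.83, 0.490 and 5.73 TPM with CPC, at 0.844, 3.57 and 15.6 TPM with AEBDAC and at 4.59, 5.41 and 7.65 TPM with MTOAC, against 0.426, 0.572 and 0.876 TPM in vehicle. All MTOAC libraries lay above vehicle, but CPC library 2 and AEBDAC library 1 lay within its range, and the AEBDAC libraries spread 18.5-fold. Only compound libraries reached the 1 TPM that the filter asks for, so a higher value with the compounds was built into its entry into the test. The log2 fold change was 1.17 ± 0.71 with CPC, 1.69 ± 0.71 with AEBDAC and 2.07 ± 0.71 with MTOAC (adjusted p = 0.491, 0.227 and 0.0999, limma). Without AEBDAC library 3 its fold change with that compound was 0.85. In order of level Slc7a1 was the lowest of the 10 in vehicle and the seventh with AEBDAC and MTOAC, where it overlapped its neighbours Slc6a9 and Slc1a5.

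Slc7a3, the paralogue of Slc7a1 on the X chromosome, did not pass with any compound. It averaged 0.855 ± 0.463 TPM with CPC, 0.747 ± 0.325 TPM with AEBDAC and 0.624 ± 0.211 TPM with MTOAC, against 1.09 ± 0.598 TPM in vehicle (SD, n = 3 each), and the groups overlapped. Just 3 of the 12 libraries reached 1 TPM, the least that the filter allows. Its log2 fold changes lay between -0.33 and -0.16 (adjusted p 0.554 or more, limma).

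Of the paralogues Slc1a4 and Slc1a5, the first rose with AEBDAC and MTOAC and the second did not pass, and the difference between them was not tested. Slc1a4 encodes ASCT1, which exchanges alanine, serine and cysteine, and Slc1a5 encodes ASCT2, which also carries glutamine. Slc1a4 (ENSMUSG00000020142.12, chr11:20302180-20332713) stood at 38.5, 47.8 and 45.1 TPM with CPC, at 50.1, 59.3 and 61.1 TPM with AEBDAC and at 54.3, 56.9 and 64.3 TPM with MTOAC, against 36.6, 31.8 and 32.7 TPM in vehicle. No compound library overlapped vehicle, and the spread within a group was small, with coefficients of variation of 7.53% to 10.8%. Slc1a4 rose by 0.73 ± 0.13 log2 with AEBDAC (adjusted p = 0.0320) and by 0.78 ± 0.13 log2 with MTOAC (adjusted p = 0.0116), while 0.36 ± 0.13 with CPC did not pass (adjusted p = 0.265, limma).

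Slc1a5 stood at 4.97, 4.59 and 5.77 TPM with CPC, at 5.22, 3.22 and 4.43 TPM with AEBDAC and at 4.80, 3.47 and 3.29 TPM with MTOAC, against 7.06, 4.24 and 5.10 TPM in vehicle. The groups overlapped, and vehicle library 1 held the highest value. Its log2 fold changes were -0.06, -0.29 and -0.41 (adjusted p = 0.933, 0.535 and 0.316). With quantile normalization the value with CPC turned to 0.15. Fold changes below 0 were common here, since the median of all genes tested lay at -0.17 with CPC, -0.16 with AEBDAC and -0.22 with MTOAC, or -0.09, -0.07 and -0.14 without vehicle library 1.

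The system A carriers, sodium-driven importers of alanine and glutamine, and the glycine transporter did not pass with any compound. Slc38a2, which is abundant here and is known in other cells for its induction by amino acid shortage, stood at 59.9, 116 and 97.0 TPM with CPC, at 70.8, 120 and 131 TPM with AEBDAC and at 86.4, 107 and 149 TPM with MTOAC, against 96.7, 93.2 and 90.1 TPM in vehicle. In each compound group library 1 lay below all vehicle libraries and libraries 2 and 3 lay at or above 97.0 TPM, which no vehicle library reached. The log2 fold changes were -0.09, 0.15 and 0.25, each ± 0.28, and the first turned to 0.07 with quantile normalization (adjusted p = 0.922, 0.814 and 0.631). With MTOAC the 95% interval ran from -0.37 to 0.87.

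Slc38a1 averaged 8.78 ± 1.95 TPM with CPC, 9.02 ± 0.874 TPM with AEBDAC and 9.41 ± 3.70 TPM with MTOAC, against 8.78 ± 0.847 TPM in vehicle, with log2 fold changes between -0.02 and 0.03 that became 0.19 with CPC after quantile normalization. Slc6a9, the glycine transporter GlyT1, averaged 6.57 ± 1.49 TPM, 7.24 ± 3.84 TPM and 8.40 ± 2.79 TPM with CPC, AEBDAC and MTOAC, against 6.15 ± 0.580 TPM in vehicle (SD, n = 3 each). For both genes the compound libraries overlapped the vehicle libraries. Slc6a9 is crossed on the opposite strand by Ccdc24, B4galt2 and Gm17114.

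**Figure D3:**
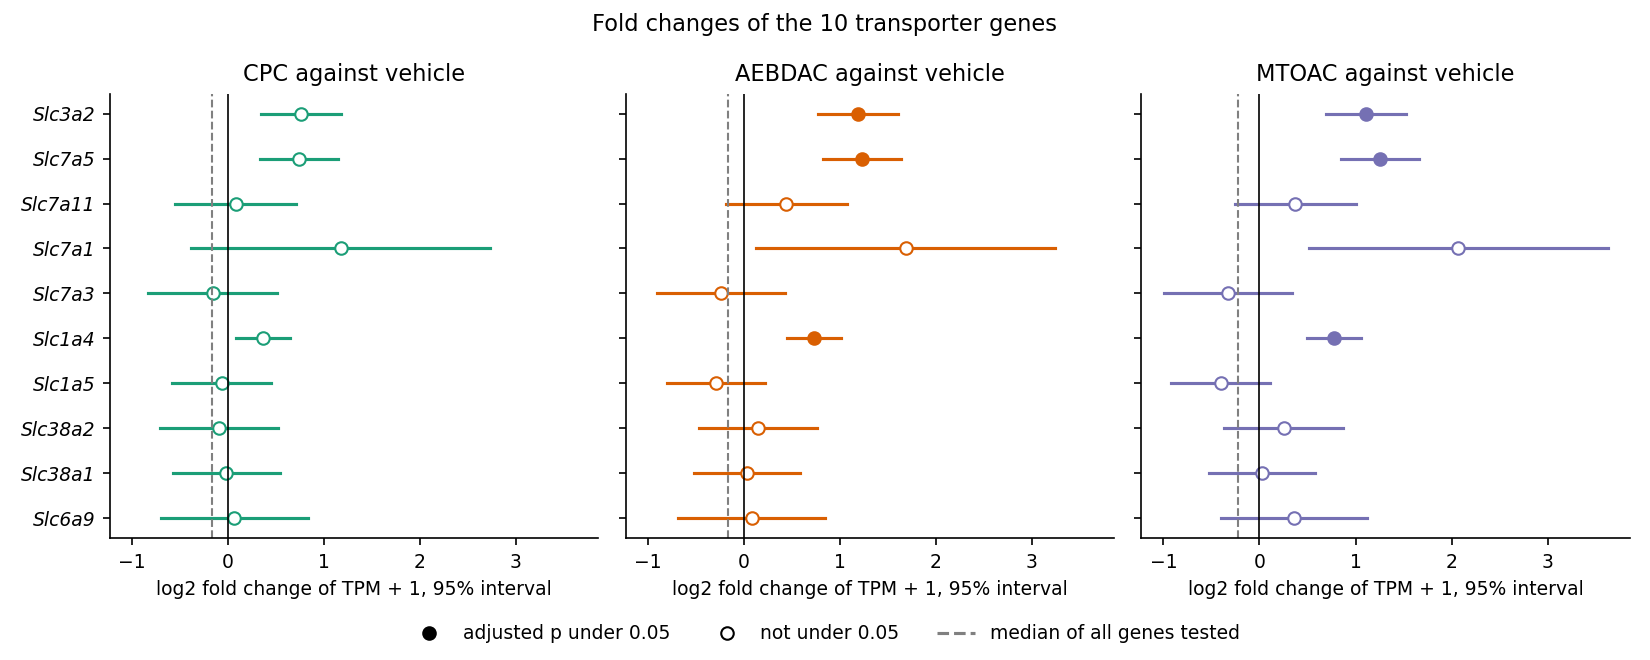
Log2 fold change of TPM + 1 over vehicle (horizontal axis) with its 95% interval for each of the 10 genes, for CPC, AEBDAC and MTOAC; filled points have an adjusted p under 0.05 and the dashed line is the median of all 12009 genes tested. In this fit without a block Slc3a2, Slc7a5 and Slc1a4 are filled with AEBDAC and MTOAC, and no gene is filled with CPC.

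In the fit without a block, 3 of the 10 genes rose with AEBDAC, 3 with MTOAC and none with CPC, and none fell. Of all genes tested 0.391%, 0.791% and 0.0333% were called higher in these comparisons and 0.883%, 5.75% and 0.0333% lower. Quantile normalization moved the share of higher genes among all calls to 52.7%, 49.5% and 75% for AEBDAC, MTOAC and CPC, against 30.7%, 12.1% and 50% without it, and kept the same 3 calls with AEBDAC and with MTOAC. Same-numbered libraries of CPC and vehicle deviated together. With the number as a block 2 of the 10, Slc7a5 and Slc3a2, and 1.53% of all genes were called with CPC. With CPC 13.6% of the genes tested, and Slc7a5, Slc3a2 and Slc1a4 of the 10, were at an unadjusted p under 0.05. Libraries lay above vehicle without overlap for 3 of the 10 genes with CPC, 4 with AEBDAC and 4 with MTOAC, against 2.58%, 5.65% and 3.99% of all genes tested. Beside Slc7a5, Slc3a2 and Slc1a4 these were Slc7a11 with AEBDAC and Slc7a1 with MTOAC, and Slc7a1 passed the filter only through compound libraries. The median log2 fold change of the 10 was 0.08, 0.30 and 0.37. With vehicle or compound libraries left out in turn, the calls with MTOAC stayed at 2 or 3 of the 10 (without MTOAC library 2, Slc3a2 had an adjusted p of 0.0507). With AEBDAC there were no calls without vehicle library 2, AEBDAC library 2 or AEBDAC library 3, against Slc1a4 alone without vehicle library 1, Slc7a5 alone without vehicle library 3, and all 3 without AEBDAC library 1. The fold changes of Slc7a5 with AEBDAC stayed between 1.10 and 1.37 and those of Slc3a2 between 1.07 and 1.35 in these fits. With just the compound and vehicle libraries in the fit, none of the 10 passed with any compound (adjusted p for Slc7a5 0.110 with AEBDAC and 0.0621 with MTOAC). The 3 comparisons share the vehicle libraries and are not independent of each other. The 10 genes were chosen with earlier results of these data known, so their counts beside the shares of all genes are a description only.

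Library 1 often held the lowest value of a compound group. Of the 10 genes 5 had their lowest value in library 1 with CPC, 8 with AEBDAC and 8 with MTOAC, against 2 in vehicle, while 33.9%, 27.0%, 28.7% and 23.0% of all genes tested were lowest there. The compound-to-vehicle differences taken within a number were positive in 3 of 3 numbers with every compound for Slc7a5, Slc3a2 and Slc1a4. These signs follow from the lack of overlap with vehicle given above and add nothing to it. For Slc3a2 with CPC they were 0.39, 0.96 and 0.94 log2 for numbers 1 to 3, and for Slc7a5 0.50, 0.83 and 0.89. Slc38a2 differed in sign between the numbers, at -0.68, 0.31 and 0.11 with CPC, -0.44, 0.36 and 0.54 with AEBDAC and -0.16, 0.20 and 0.72 with MTOAC.

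The compounds differ in structure. CPC has a pyridinium ring and a single long alkyl chain, AEBDAC an ethylbenzyl group and a long alkyl chain, and MTOAC several octyl chains and no ring. The 3 pairs of compounds were compared at the same exposure time, each at its own IC75, so doses were matched by effect. None of the 10 genes passed in any pair, and 0% of all genes did in each of the 3 (limma, adjusted over all genes). At an unadjusted p under 0.05 were 1.76% of all genes between AEBDAC and CPC, 3.74% between MTOAC and CPC and 2.56% between MTOAC and AEBDAC. Slc7a5 differed by 0.50 log2 between AEBDAC and CPC (95% interval 0.09 to 0.90) and by 0.52 between MTOAC and CPC (0.11 to 0.93), and Slc1a4 by 0.37 (0.09 to 0.65) and 0.41 (0.13 to 0.69). For Slc3a2 the differences were 0.43 (0.02 to 0.85) and 0.35 (-0.07 to 0.77). All of these had an adjusted p of 1, so a weaker response to CPC was not shown. MTOAC and AEBDAC, which differ in the presence of a ring, differed by 0.02 log2 for Slc7a5 (-0.38 to 0.43), by -0.08 for Slc3a2 (-0.50 to 0.34) and by 0.04 for Slc1a4 (-0.24 to 0.32), intervals that leave room for differences of up to these bounds. For Slc7a1 the interval between MTOAC and AEBDAC ran from -1.17 to 1.94 and tells little.

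Atf4 and several other genes of the stress response rose as well. Atf4 stood at 265, 384 and 360 TPM with CPC, at 381, 444 and 445 TPM with AEBDAC and at 366, 432 and 301 TPM with MTOAC, against 132, 176 and 220 TPM in vehicle, and it passed with AEBDAC (1.29 log2, adjusted p = 0.0207) and MTOAC (1.07 log2, adjusted p = 0.0162). Of 13 genes tested on a list of stress regulators and targets, 2 rose with CPC, 4 with AEBDAC and 5 with MTOAC, and none fell, while 0.0333%, 0.391% and 0.791% of all genes tested were called higher. These were Chac1 and Trib3 with each compound, Asns and Atf4 with AEBDAC and MTOAC, and Sesn2 with MTOAC. The fold changes of the transporters were smaller than those of Chac1, which degrades glutathione (2.66, 3.11 and 3.03 log2 with CPC, AEBDAC and MTOAC), and of Asns, asparagine synthetase (2.56, 3.45 and 3.18 log2, the first with an adjusted p of 0.0540). Asns stood at 0.142, 1.88 and 0 TPM in vehicle, so it entered the test through the compound libraries, and with a pseudocount of 0.1 its fold changes were 4.43, 5.40 and 5.11 log2. With the number as a block Asns (adjusted p = 0.0304) and Atf4 (0.0448) also passed with CPC, as did Hmox1 (0.0352). Atf4 lost its call with AEBDAC without AEBDAC library 2 or 3 or vehicle library 1 or 2 (adjusted p = 0.135, 0.111, 0.0511 and 0.0793), and with MTOAC without MTOAC library 2 (0.0640). Ddit3, which encodes CHOP, did not pass with any compound (adjusted p = 0.844, 0.515 and 0.145). Targets of NRF2, the factor of the antioxidant response that is also known to induce Slc7a11, formed another list. Of 17 tested, Slc7a11 among them, none passed with CPC, Hmox1 rose with AEBDAC, and with MTOAC Hmox1 rose and Keap1, the inhibitor of NRF2, fell (adjusted p = 0.0436, and 0.185 with quantile normalization). Of all genes tested 0.0666% were called in either direction with CPC, 1.27% with AEBDAC and 6.54% with MTOAC. Most of the list lay below 0: 3 of the 17 had a positive fold change with CPC, 6 with AEBDAC and 4 with MTOAC, where 28.9%, 33% and 28.3% of all genes tested did. The list medians were -0.29, -0.21 and -0.21 log2, against -0.17, -0.16 and -0.22 log2 for all genes tested. Pgd, an enzyme of the pentose phosphate pathway, lay at -0.55 log2 with MTOAC (adjusted p = 0.0538, and 0.0276 to 0.0467 in the 5 alternatives that called it). Srxn1, another gene of the list, lay at -1.03 log2 with MTOAC and did not pass (limma adjusted p = 0.0238 and 0.0487 in the 2 alternatives that called it). Gclm and Nqo1 did not pass with any compound. Leaving out 1 library ended the calls of Trib3 with CPC (CPC library 2 or 3, vehicle library 1 or 2), of Hmox1 with AEBDAC (any but AEBDAC library 1) and with MTOAC (MTOAC library 2, vehicle library 1 or 2), and of Keap1 (any library), with adjusted p up to 0.166, 0.189, 0.0871 and 0.123.

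The other amino acid transporters gave no calls. Of 56 listed, 23 were tested and none passed with any compound, where 0.0666%, 1.27% and 6.54% of all genes did with CPC, AEBDAC and MTOAC. They had median log2 fold changes of -0.03 with CPC, -0.08 with AEBDAC and -0.15 with MTOAC, against the -0.17, -0.16 and -0.22 of all genes. Slc38a6 stood at 108 ± 11.5 TPM with CPC, 111 ± 17.1 TPM with AEBDAC and 111 ± 26.3 TPM with MTOAC, against 154 ± 17.4 TPM in vehicle (adjusted p = 0.265, 0.185 and 0.115). Of 12 genes tested on a list of mitochondrial carriers 1 was called, with MTOAC, where 6.54% of all genes were. The list was drawn up for amino acids, but Slc25a39 and Slc25a40 on it are known as carriers of glutathione. The called gene was Slc25a40, which stood at 2.70 ± 0.750 TPM with MTOAC, against 6.54 ± 0.510 TPM in vehicle (-1.05 log2, adjusted p = 0.0359, and 0.0906 with quantile normalization). With the number as a block it also passed with CPC (-1.02 log2, adjusted p = 0.0492), and without any 1 library other than MTOAC library 3 it lost the call with MTOAC (adjusted p up to 0.118). Slc25a39 averaged 164 ± 9.86 TPM with MTOAC and 131 ± 8.02 TPM in vehicle (0.33 log2, adjusted p = 0.0561, and 0.0160 to 0.0474 in the 5 alternatives that called it). No test of the 10 genes against these lists was made, and the lists were compiled with earlier results of these data known.

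**Figure D4:**
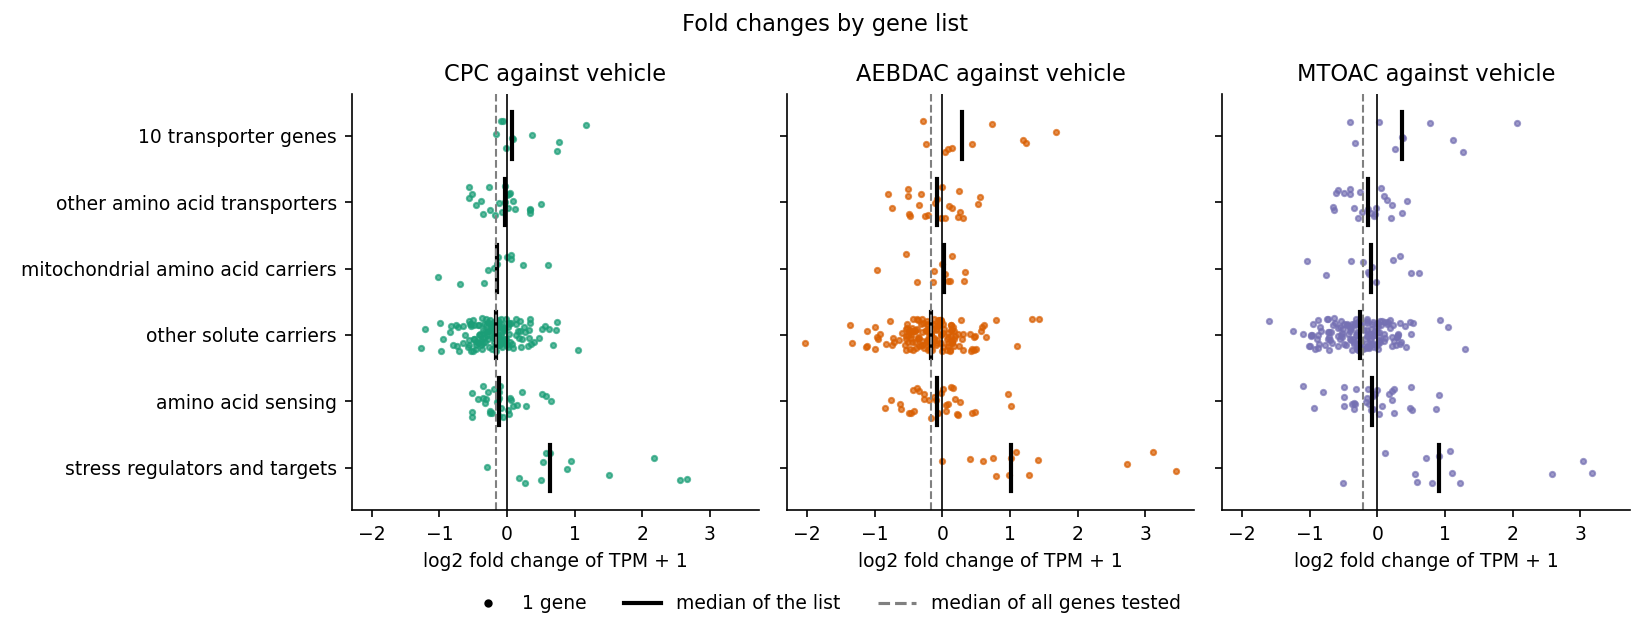
Log2 fold change of TPM + 1 over vehicle (horizontal axis) of each tested gene (points) by gene list, for CPC, AEBDAC and MTOAC; black bars are list medians and the dashed line is the median of all genes tested. The medians of the 10 transporter genes lie at 0.08, 0.30 and 0.37, and those of the other amino acid transporters at -0.03, -0.08 and -0.15.

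The genes whose pattern over the 12 libraries was most like the mean of the 10 standardised transporter profiles were Klf5, Gars, Mtfr1, Cyb5r1, Dusp1, Lsm14a, Ppp4r2 and Actr3, with Pearson r between 0.938 and 0.956. The libraries share their groups, so this describes likeness only. The 10 genes did not all share 1 pattern. Against the mean of the other 9, r was -0.655 for Slc1a5 and -0.132 for Slc7a3, and the highest was 0.789 for Slc3a2. Gars, a glycyl-tRNA synthetase, stood at 188 ± 18.3 TPM with CPC, 207 ± 22.1 TPM with AEBDAC and 220 ± 27.2 TPM with MTOAC, against 165 ± 17.4 TPM in vehicle. None of the 8 passed with any compound in the main fit. All but Cyb5r1 were called with MTOAC in 1 or 2 of the alternatives. With quantile normalization Gars had an adjusted p of 0.0336 with MTOAC (limma). With the number as a block Klf5 (0.0406 and 0.0202) and Dusp1 (0.0206 and 0.00864) passed with AEBDAC and MTOAC.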

How the data were processed

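For each library the authors deposited TPM values of 35385 gene symbols. Per the submitters' processing notes Salmon and the build mm10 were used; the version, annotation and gene summary are not named there. Reads were paired, 150 bp long, from poly(A) RNA, per the series' design text. Groups came from the treatment labels. TPM are relative to each library's total, so a rise of abundant transcripts lowers the others. Differences were tested in limma 3.58.1 (R 4.3.3), using an intensity trend and robust moderation, on log2(TPM + 1), a scale that understates changes of low genes. All 12 libraries entered 1 fit of 4 group means, without covariates, over the 12009 genes that reached 1 TPM in 3 or more libraries; p-values are two-sided. An exact permutation test of 3 against 3 cannot go below 0.1. The 95% interval of the median gene had a half-width of 0.55 log2. The fit was tested on simulated data. Alternatives changed the pseudocount, filter, normalization, moderation, libraries in the fit and replicate block, or left out 1 library. All 10 transporter genes passed the filter.

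The members and lists were chosen with earlier results of these data known. Genes named are the 10 members, called genes of each list (at most 6 per comparison, or the 3 of smallest p where none was called, some given only as counts), 8 fixed stress genes and the 8 likest profiles. Coordinates come from GENCODE M21 on GRCm38, the assembly of mm10, and promoters from RefSeq (GRCm38.p6). Replicate numbers come from the titles. They were taken to pair libraries where all 3 correlations of same-numbered deviations from the group means exceeded 0.1. This held for CPC and vehicle (0.34, 0.31 and 0.23), AEBDAC and CPC, and MTOAC and AEBDAC, and not for the other 3 comparisons. Missing the rule does not show that libraries were unpaired. Pluripotency marker sums, in order of number, were 33.6, 8.48 and 35.8 TPM in vehicle and 24.2, 11.1 and 34.3 with CPC. They were 34.1, 11.4 and 38.0 with AEBDAC and 33.2, 13.8 and 39.05 with MTOAC, lowest at the same number throughout. OPC, astrocyte, neuronal and mesenchymal sums had no such shared number. Pairing was not tested beyond this rule.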

Additional observations from a re-analysis of the deposited data

How the results depend on the processing

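With AEBDAC and MTOAC the calls of Slc7a5, Slc3a2 and Slc1a4 held under another pseudocount, a 5 TPM filter, quantile normalization and rescaling without mitochondrially encoded genes, and Slc1a4 lost its call with AEBDAC without a filter or under plain empirical Bayes moderation. With only the 2 groups in the fit 0 of the 10 genes passed with AEBDAC and 0 with MTOAC; that fit has fewer libraries to estimate spread from. Leaving out 1 library gave 0 to 3 calls with AEBDAC. The replicate block gave 2 calls with CPC and 3 with quantile normalization added; with AEBDAC and MTOAC, whose numbers did not meet the pairing rule, it gave 3 and 4 calls, Slc7a1 being the fourth, and 4 and 4 with quantile normalization added, Slc7a11 being the fourth (0.66 log2, adjusted p = 0.0378, and 0.65 log2, adjusted p = 0.0320). The correlations of same-numbered deviations were 0.078, 0.25 and 0.035 for AEBDAC and vehicle and -0.026, 0.35 and -0.19 for MTOAC and vehicle. These values do not show that the libraries were unpaired. Over all genes the block gave 184, 1072 and 1904 calls with CPC, AEBDAC and MTOAC, against 8, 153 and 785 without it, and the fits of 2 groups gave 0, 3 and 17; 1 library left out gave 1 to 5, 9 to 104 and 149 to 573.

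Signs turned only for values that did not pass, and the cause was not tested. Quantile normalization, with or without the replicate block, gave log2 values of 0.15 for Slc1a5, 0.069 for Slc38a2, 0.19 for Slc38a1 and 0.037 for Slc39a3 with CPC, 0.077 for Nqo1 with MTOAC, and 0.067 for Slc38a1 between MTOAC and AEBDAC. Rescaling without mitochondrially encoded genes gave 0.022 for Slc38a1 with CPC, -0.017 for Slc6a9 between AEBDAC and CPC and 0.0029 for Slc38a1 between MTOAC and AEBDAC, and a pseudocount of 0.1 gave -0.0073 for Slc6a9 between AEBDAC and CPC. Leaving out 1 library in turn gave with CPC -0.068 to 0.17 for Slc7a11, -0.39 to 0.041 for Slc7a3, -0.20 to 0.11 for Slc1a5, -0.29 to 0.18 for Slc38a2, -0.087 to 0.16 for Slc6a9, -0.17 to 0.11 for Slc38a1, -0.17 to 0.49 for Ddit3, -0.58 to 0.12 for Nqo1 and -0.022 to 0.16 for Ppp4r2. With AEBDAC these ranges were -0.019 to 0.42 for Slc38a2, -0.24 to 0.52 for Slc6a9, -0.035 to 0.089 for Slc38a1, -0.37 to 0.017 for Gclm and -0.40 to 0.47 for Nqo1. With MTOAC these ranges were -0.22 to 0.31 for Slc38a1, -0.052 to 0.66 for Slc39a14 and -0.46 to 0.25 for Nqo1. Between AEBDAC and CPC these ranges were -0.33 to 1.26 for Slc7a1, -0.21 to 0.12 for Slc7a3, -0.031 to 0.51 for Slc38a2, -0.31 to 0.45 for Slc6a9 and -0.071 to 0.20 for Slc38a1. Between MTOAC and CPC these ranges were -0.31 to 0.022 for Slc7a3 and -0.21 to 0.33 for Slc38a1. Between MTOAC and AEBDAC these ranges were -0.33 to 0.17 for Slc7a11, -0.13 to 0.16 for Slc7a5, -0.24 to 0.056 for Slc3a2, -0.36 to 1.22 for Slc7a1, -0.26 to 0.015 for Slc7a3, -0.045 to 0.097 for Slc1a4, -0.27 to 0.0061 for Slc1a5, -0.17 to 0.28 for Slc38a2, -0.16 to 0.59 for Slc6a9 and -0.26 to 0.28 for Slc38a1.

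Depth is unknown, so low values such as those of Slc7a1, Slc7a3 and Slc7a11 have no counting error stated, and a difference under about 0.55 log2 in a typical gene lay within its own 95% interval.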

Other observations

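Of 32 genes tested that sense amino acids, none passed with CPC or AEBDAC and 3 passed with MTOAC, while 0.0666%, 1.27% and 6.54% of all genes were called with CPC, AEBDAC and MTOAC. Sesn2, a leucine sensor and target of ATF4, stood at 113, 139 and 104 TPM with MTOAC, against 70.3, 73.4 and 46.1 TPM in vehicle (0.91 log2, adjusted p = 0.0359, limma). With AEBDAC Sesn2 stood at 107, 156 and 119 TPM, against the same vehicle values (1.01 log2, adjusted p = 0.0525, and 0.00178 to 0.0439 in the 5 alternatives that called it). Castor2, of the arginine-sensing CASTOR family, averaged 5.66 ± 0.349 TPM with MTOAC and 11.8 ± 1.11 TPM in vehicle (SD, n = 3 each; -0.93 log2, adjusted p = 0.0133). Depdc5, a subunit of the GATOR1 complex that restrains mTORC1, averaged 9.53 ± 2.43 TPM with MTOAC and 22.0 ± 7.58 TPM in vehicle (-1.11 log2, adjusted p = 0.0400, and 0.0597 with quantile normalization). Without MTOAC library 2 none of the 3 passed (adjusted p = 0.120, 0.0501 and 0.130), Sesn2 and Depdc5 also lost their calls without several other single libraries, and quantile normalization called 4 of the 32 higher and 1 lower. Among 11 adaptors and regulators of transporter proteins none passed. Txnip, an arrestin known to limit glucose uptake, averaged 1.09 TPM with CPC, 0.582 TPM with AEBDAC and 0.680 TPM with MTOAC, against 5.18 TPM in vehicle (adjusted p = 0.253, 0.0862 and 0.0542, the first 0.0444 once the library number entered as a block). It was listed at 0 in library 2 of AEBDAC and of MTOAC.

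Of 147 other solute carriers tested, none passed with CPC, 2 were higher and 1 lower with AEBDAC, and 2 were higher and 9 lower with MTOAC, against 0.391% higher and 0.883% lower, and 0.791% higher and 5.75% lower, of all genes tested. Slc16a9, a monocarboxylate carrier, was higher with both, at 3.03 ± 0.683 TPM with AEBDAC and 2.53 ± 0.288 TPM with MTOAC, against 0.869 ± 0.247 TPM in vehicle (adjusted p = 0.0425 and 0.0366), and lost both calls when any 1 library was left out (adjusted p up to 0.165 and 0.114). Just 1 vehicle library reached 1 TPM, so Slc16a9 entered the test through the compound libraries, and its fold changes of 1.10 and 0.92 log2 were 1.70 and 1.46 log2 with a pseudocount of 0.1. Slc39a14, a zinc and manganese importer, was called with AEBDAC, at 15.1, 20.3 and 21.3 TPM, against 3.29, 6.80 and 10.5 TPM in vehicle (1.44 log2, adjusted p = 0.0483). Slc15a2, the peptide carrier PEPT2, was lower with both, averaging 57.6 ± 3.76 TPM with AEBDAC and 55.9 ± 2.06 TPM with MTOAC, against 80.4 ± 5.07 TPM in vehicle (adjusted p = 0.0464 and 0.0165), and lost the calls with quantile normalization (0.0773 and 0.0606). With CPC it averaged 58.3 TPM, against the same vehicle mean (adjusted p = 0.121, or 0.0451 once the number entered as a block). Without AEBDAC library 2, among others, the calls of all 3 carriers with AEBDAC were lost (adjusted p = 0.165 for Slc16a9, 0.205 for Slc39a14 and 0.212 for Slc15a2), and Slc15a2 with MTOAC was lost without MTOAC library 2 (0.0603).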
